A study of Saccharomyces cerevisiae with 4 samples.

Results

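Ty elements are the LTR retrotransposons of budding yeast. RNA polymerase II (RNAP II) transcribes each copy from its 5′ LTR into a nearly full-length RNA, which is both the mRNA of the element and the template for its reverse transcription. The first ORF, TYA, encodes the Gag-like protein of the virus-like particle, and TYB, which is read as a TYA-TYB fusion after a ribosomal frameshift, encodes protease, integrase and reverse transcriptase with RNase H. Ty1, Ty2 and Ty4 belong to the copia-like group and Ty3 to the gypsy-like group. Ty1 and Ty2 share their LTRs and much of TYB and diverge in TYA. Ty1 is the abundant family of laboratory strains, whereas Ty3 is known for its induction by mating pheromone and for inserting just upstream of genes transcribed by RNA polymerase III.

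The Ty ORFs described here are 31 of the 6210 probes of a yeast oligonucleotide array. They are the probes whose name begins with 1 of 30 listed ORFs, a rule that also takes in YML045W-A beside YML045W. The list was drawn up with the ratios on these same arrays known, so the values of its members are given as a description. The members were part of the fit over all probes. Their counts from that fit are printed beside those of all probes and not read as a result. The members divide into 25 Ty1 or Ty2 probes (9 TYA and 12 TYB probes of Ty1, 2 TYA and 2 TYB probes of Ty2), 4 Ty3 probes and 2 Ty4 probes, from 17 elements on 9 chromosomes. In 14 elements both ORFs were listed. The family follows the list for Ty3 and Ty4, and ORF lengths in the RefSeq gene table (assembly R64) for the split of Ty1 and Ty2, whose TYA ORFs span 1323 and 1317 bp there. YIL082W, a Ty3 ORF, is not in that table, and all 31 probes had a value on all 4 arrays.

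The study compared the 5A mutant, in which 5 alanines are inserted between the heptapeptide pairs (diheptads) of the tail (C-terminal domain, CTD) of RPB1, the largest subunit of RNAP II, with control cells that carry the WT CTD. The 5A mutant was made in yeast strain Z26 by the plasmid shuffle. In it, the URA3-linked WT gene is lost on 5-FOA after a LEU2-linked CTD construct is taken up. The paper describes the control cells as transformed with the WT CTD and does not detail how they were made. Cells were grown in YPD to log phase, and 4 RNA replicates of each strain were hybridized in pairs on 4 arrays, the 5A mutant in Cy5 and the WT control in Cy3. The mating type of Z26 is not given in the sources used here. Whether replicates were separate cultures is not stated either, so p-values measure only the spread between these samples.

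Every value below is a log2 ratio of the 5A mutant over the WT control unless a fold is named. The table states neither its base nor its direction, and this reading was inferred from counts of probes. Dyes were not swapped, so dye and strain cannot be told apart at any probe. Between 6022 and 6177 probes had a value on an array, and the array medians lay between -0.01 and -0.00340. Across probes, which are not independent replicates, array 2 correlated with the other arrays with Pearson's r between 0.666 and 0.691, and the other arrays among themselves with r between 0.853 and 0.877. Results that rest on array 2 are therefore given with and without it. RPO21, the gene of RPB1, averaged -5.67 ± 0.75 (SD, n = 4), and URA3 averaged -4.80 ± 0.38 (SD, n = 4). Which part of RPO21 its probe reads is not known here. Chromosome XI stood high, with a median of 0.89 over 317 probes, and held no listed Ty probe.

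**Figure D1:**
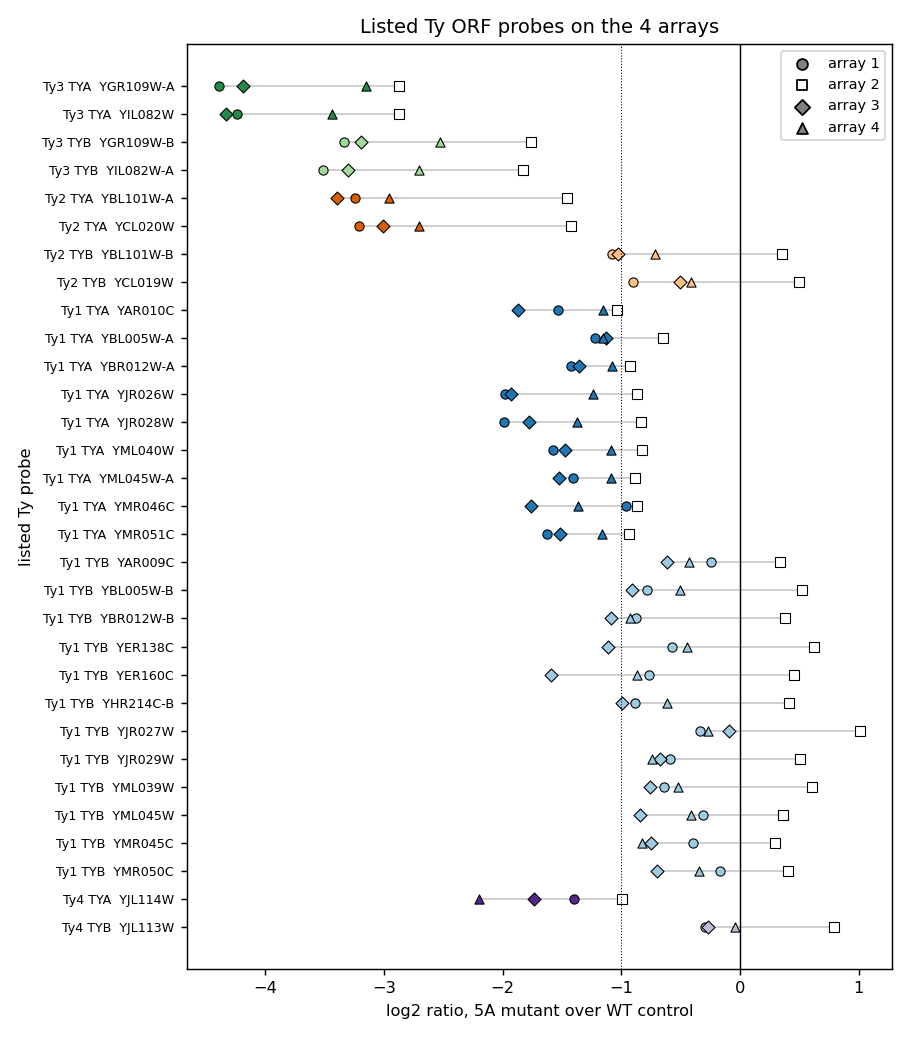
Log2 ratio (5A mutant over WT control, horizontal axis) of each of the 31 listed Ty probes on arrays 1 to 4, with 1 row per probe, grouped by family and ORF. Ty3 and Ty2 TYA probes sit farthest below 0, Ty1 TYA probes lie between -1.99 and -0.65, and the TYB probes other than the 2 of Ty3 are above 0 on array 2 alone.

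The lowest ratios among the Ty ORFs belonged to Ty3. Over the 4 Ty3 probes, the array medians averaged -3.22 ± 0.72 (SD, n = 4), which is 9.35-fold lower in the 5A mutant than in the WT control. All 4 were below 0 on every array, and no Ty1 TYA probe reached as low as any of them on any array. In RNA from bulk culture, fewer cells with the transcript and less of it per cell cannot be told apart.

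The Ty3 copy on chromosome IX is represented by YIL082W, its Gag ORF, and YIL082W-A, its longer ORF with the polymerase. YIL082W was at -4.24, -2.87, -4.33 and -3.43 on arrays 1 to 4, a mean of -3.72 ± 0.69 (SD, n = 4), or 13.2-fold lower, and was the probe ranked 5 from the lowest of 6157. YIL082W-A was at -3.51, -1.83, -3.30 and -2.70, a mean of -2.84 ± 0.75 (SD, n = 4), or 7.14-fold lower, at rank 28. In both, array 2 was the least negative and arrays 1 and 3 the most.

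The copy on chromosome VII gave nearly the same values. Its Gag ORF YGR109W-A was at -4.39, -2.87, -4.19 and -3.15 on arrays 1 to 4, a mean of -3.65 ± 0.75 (SD, n = 4), or 12.6-fold lower, at rank 7. Its polymerase ORF YGR109W-B was at -3.33, -1.76, -3.19 and -2.53, a mean of -2.70 ± 0.72 (SD, n = 4), or 6.51-fold lower, at rank 41. The means of the 2 Gag probes differed by less than their SD over arrays, and so did those of the 2 polymerase probes. Read within an array, YIL082W-A nonetheless lay slightly below YGR109W-B on all 4 arrays, while the order of the Gag probes varied. Copies of a family are nearly identical in sequence and the probe sequences were not analysed here, so probes of different copies may report the same pool of RNA, and a value cannot be assigned to the copy that a probe is named for. Without array 2, the Ty3 median became -3.52.

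Ty2 followed Ty3, but in TYA alone. YBL101W-A, a Ty2 TYA ORF on chromosome II, was at -3.24, -1.46, -3.39 and -2.96 on arrays 1 to 4, with a mean of -2.76 ± 0.89 (SD, n = 4), or 6.79-fold lower. YCL020W, the Ty2 TYA ORF on chromosome III, was at -3.21, -1.43, -3.01 and -2.70, with a mean of -2.59 ± 0.80 (SD, n = 4), or 6.01-fold lower. Both lay below every Ty1 TYA probe on each of the 4 arrays. They lay above the 2 Ty3 Gag probes on each array, whereas against the Ty3 polymerase probes they lay higher on arrays 1 and 2, overlapped on array 3 and lay lower on array 4.

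The TYB partners of these Ty2 ORFs stayed near the level of Ty1 TYB. YBL101W-B was at -1.08, 0.35, -1.03 and -0.71, a mean of -0.62 ± 0.67 (SD, n = 4), and YCL019W was at -0.90, 0.50, -0.51 and -0.41, a mean of -0.33 ± 0.59 (SD, n = 4). Both were above 0 on array 2 and below 0 on the other arrays. Their means without array 2 were -0.94 and -0.61.

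The 9 Ty1 TYA probes formed a narrow group. Their array medians were -1.53, -0.87, -1.53 and -1.16, a mean of -1.27 ± 0.32 (SD, n = 4), which is 2.41-fold lower in the 5A mutant. Probe means ran between -1.50 for YJR026W and -1.04 for YBL005W-A, and each of the 36 values was below 0. YJR026W and YJR028W, the TYA ORFs of a pair of neighbouring elements on chromosome X, were at -1.98, -0.87, -1.93 and -1.24 and at -1.99, -0.84, -1.78 and -1.37. Next came YAR010C on chromosome I, at -1.53, -1.03, -1.87 and -1.15. At the upper end, YBL005W-A on chromosome II was at -1.22, -0.65, -1.13 and -1.16. The other 5, YMR051C, YMR046C, YML040W, YML045W-A and YBR012W-A, averaged between -1.31 and -1.20. YJR026W lay below YBL005W-A on each of the 4 arrays. The SD over arrays was 0.54 for YJR026W and 0.26 for YBL005W-A.

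The 12 Ty1 TYB probes were closer to 0 and depended on the array. Their medians were -0.58, 0.43, -0.80 and -0.51 on arrays 1 to 4, a mean of -0.37 ± 0.55 (SD, n = 4). All 12 were above 0 on array 2 and below 0 on each of the other arrays. Their median became -0.63 without array 2 and -0.22 without array 3. YER160C on chromosome V had the lowest mean, -0.69 ± 0.85 (SD, n = 4), with values of -0.77, 0.45, -1.59 and -0.86. YJR027W on chromosome X had the highest, at -0.34, 1.01, -0.09 and -0.27. Its mean was 0.08 ± 0.63 (SD, n = 4) over 4 arrays and -0.23 without array 2, so its direction rests on that array. The remaining 10 averaged between -0.63 for YBR012W-B and -0.20 for YMR050C. On arrays 1, 2 and 4 no Ty1 TYB probe reached into the range of the Ty1 TYA probes, and on array 3 only YER160C did.

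The Ty4 element on chromosome X showed the same division between its ORFs. YJL114W, the TYA ORF, was at -1.40, -0.99, -1.73 and -2.20, a mean of -1.58 ± 0.51 (SD, n = 4), or 2.99-fold lower. YJL113W, the TYB ORF, was at -0.29, 0.79, -0.27 and -0.04, a mean of 0.05 ± 0.51 (SD, n = 4). Like YJR027W, YJL113W turned negative without array 2, to -0.20. The lowest value of YJL114W, on array 4, lay below every value of the Ty1 TYA probes.

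Read against the 2-fold cut-offs of the study, 16 of the 31 probes had a mean of -1 or less, namely all 14 TYA probes and the 2 Ty3 TYB probes, and none had a mean of 1 or more. Over all 6157 probes tested, 8.66% were lower by that rule and 5.75% higher. YBL005W-A was the member just inside the cut-off at -1.04, and YER160C the one just outside at -0.69. The same 16 probes were below 0 on all 4 arrays, as were 28.1% of the 5955 probes with 4 values. They also were the 16 that had an adjusted p under 0.05 in limma with a lower mean, beside 20.7% of all probes called lower and 19.8% called higher, or 40.5% in either direction. The contrast that gave these counts also chose the members, and nothing is read from them. Without array 2, 28 of the 31 had an adjusted p under 0.05, beside 51.3% of all probes.

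TYA and TYB of an element lie on a single RNA, and their probes can be set against each other within an array. The difference, TYA minus TYB, was below 0 in all 14 listed elements on all 4 arrays, or in 56 of 56 values. These values are not independent, since copies of a family may report the same RNA. In the 9 Ty1 elements the mean difference ran between -1.58 and -0.57 with a median of -0.93. The widest was YJR026W minus YJR027W, at -1.64, -1.88, -1.84 and -0.97, and the narrowest was YBR012W-A minus YBR012W-B, at -0.55, -1.30, -0.27 and -0.15. Array 2 gave the widest difference in 7 of these 9 elements, and without it the narrowest element averaged -0.32.

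The Ty2 elements had larger mean differences than any listed Ty1 element, -2.26 ± 0.24 for YCL020W minus YCL019W and -2.15 ± 0.24 for YBL101W-A minus YBL101W-B (SD, n = 4 each). The 2 Ty3 elements had means of -0.95 ± 0.22 on chromosome VII and -0.88 ± 0.18 on chromosome IX (SD, n = 4 each), and the Ty4 element one of -1.63 ± 0.45 (SD, n = 4). Ty3 therefore lay within the Ty1 range in this difference although both of its ORFs were far below those of Ty1. In the RefSeq table the ORF listed as TYB is mostly 5269 bp long in Ty1 and 5314 bp in Ty2 and begins at the start of TYA, so that which stretch of it a probe reads is not known here. Cross-hybridization, dye and probe response were not tested as part of these differences.

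**Figure D2:**
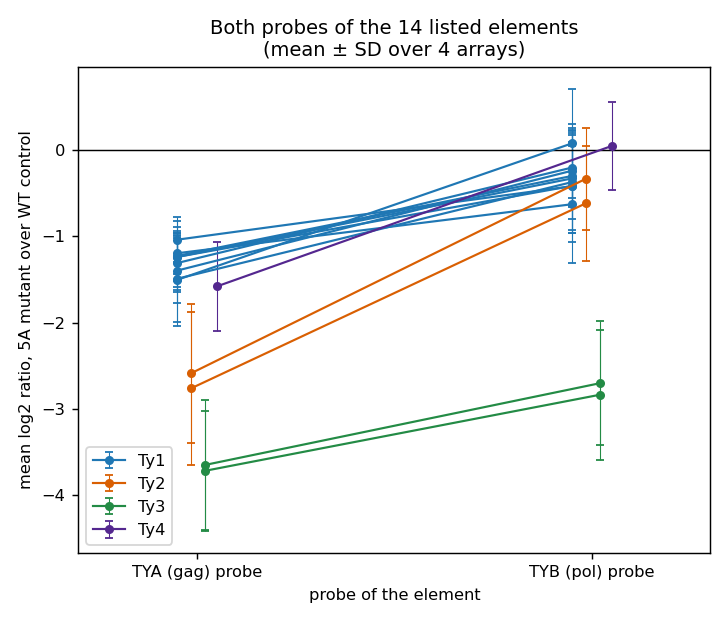
Mean log2 ratio (5A mutant over WT control, vertical axis) of the TYA probe and the TYB probe of the 14 elements with both ORFs listed, joined by a line and coloured by family, with error bars of 1 SD over 4 arrays. Every line climbs toward TYB, most steeply in the 2 Ty2 elements, and the 2 Ty3 elements stay below -2.5 at both ends.

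Probes of Ty copies outside the list had not been used to choose the members. The RefSeq table pairs a short with an enclosing long ORF at 57 further Ty probes of the array. Their values bear on whether the listed copies resemble the rest of their family, although near-identical copies may report the same RNA. The 9 listed Ty1 TYA probes had a median of probe means of -1.24, and the 21 unlisted ones one of -1.28, between -1.48 and -1.09. For Ty1 TYB the medians were -0.37 over 12 listed probes and -0.46 over 18 unlisted ones, which lay between -0.76 and -0.21. The 2 listed Ty2 TYA probes averaged -2.76 and -2.59, whereas the 8 unlisted ones lay between -3.15 and -2.82, with a median of -3.02. The 8 unlisted Ty2 TYB probes lay between -0.96 and -0.15, a span that holds both listed ones.

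The second Ty4 element, on chromosome VIII, repeated the pattern of the first. Its TYA ORF YHL009W-A was at -1.39, -0.80, -1.53 and -1.63, a mean of -1.34 ± 0.37 (SD, n = 4), and its TYB ORF YHL009W-B at -0.25, 0.64, -0.35 and -0.34, a mean of -0.07 ± 0.48 (SD, n = 4). For TYB probes listed without their TYA partner, the partners, YER159C-A, YHR214C-C and YER137C-A, averaged -1.33, -1.31 and -1.19, within the span of the listed Ty1 TYA probes. In the 27 elements with neither ORF listed, TYA minus TYB was below 0 in 107 of 108 values, with medians of -0.89 over 18 Ty1 elements and -2.38 over 8 Ty2 elements.

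**Figure D3:**
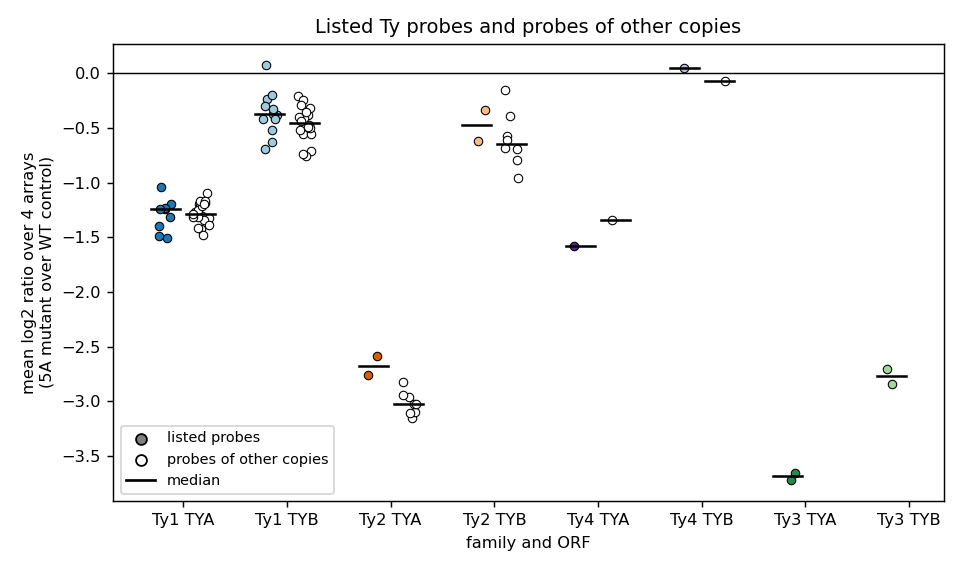
Mean log2 ratio over 4 arrays (5A mutant over WT control, vertical axis) of each listed Ty probe, drawn to the left, and each unlisted Ty probe, drawn to the right, by family and ORF, with a bar at each median. Listed and unlisted copies of Ty1 and of Ty2 TYB overlap, the unlisted Ty2 TYA probes lie between -3.15 and -2.82 just below the listed ones, and Ty3 has no unlisted probe.

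On array 2 the listed Ty probes stood higher than on the other arrays. All 14 listed Ty1 and Ty2 TYB probes were above 0 on array 2 and below 0 on the other 3 arrays, as were all 26 unlisted ones. Among the 5867 probes outside Ty elements, 486 or 8.28% had that order of signs. The value on array 2 minus the mean of the other arrays had a median of 1.25 over the 14 listed TYB probes, between 0.76 and 1.53. It was 0.50 over the 9 Ty1 TYA probes, between 0.36 and 0.88, but 1.74 and 1.55 for the Ty2 TYA probes YBL101W-A and YCL020W, more than for any listed TYB probe. It was 1.19 over the 4 Ty3 probes and 0.04 over the probes outside Ty elements, of which 95% lay between -1.10 and 1.35. Those probes were not matched to the Ty probes by level. Over all probes the SD was smallest on array 2, 0.735, against 0.858, 0.973 and 0.889 on arrays 1, 3 and 4. RPO21, also far below 0, was at -4.64 on array 2, against -5.97, -5.67 and -6.40 on arrays 1, 3 and 4. URA3 was at -4.68 on array 2, within its span of -5.22 to -4.33 on the others. Array 2 also had the lowest weight when limma estimated array weights, 0.351, against 0.992 to 2.19 for the other arrays. The shift was thus smallest in the median at Ty1 TYA and largest at Ty2 TYA, and its cause was not tested.

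**Figure D4:**
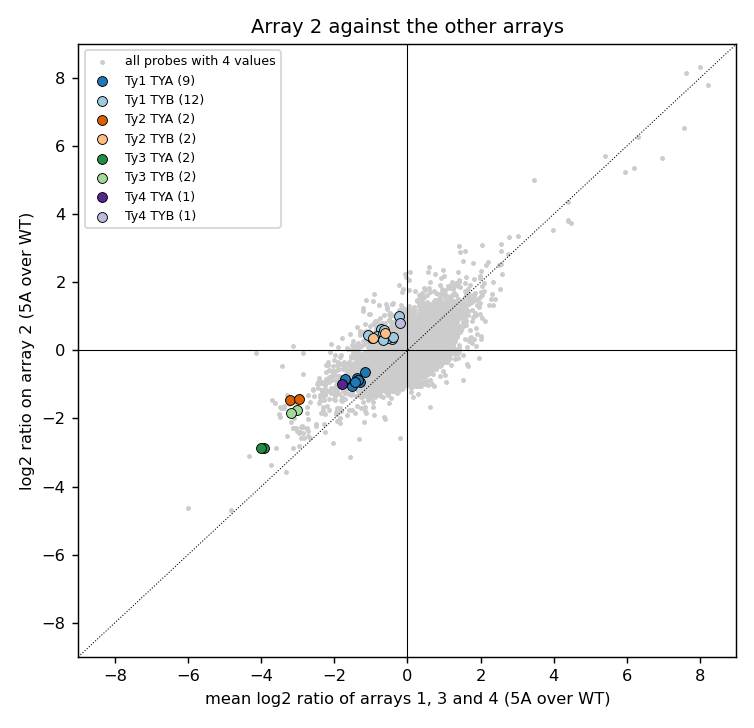
Log2 ratio (5A mutant over WT control) on array 2 (vertical axis) against the mean of arrays 1, 3 and 4 (horizontal axis) for all probes with 4 values, in grey, with the listed Ty probes coloured by class. The 14 Ty1 and Ty2 TYB probes lie above 0 on the vertical and below 0 on the horizontal axis, and the Ty3 probes lie above the diagonal, with a median excess of 1.19.

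The genes on either side of the elements give the level of the places where they lie. The 3 nearest probes outside Ty elements were taken on each side of the 17 elements, which gave 90 distinct probes. Their medians were -0.37, -0.25, -0.24 and -0.30 on arrays 1 to 4, and 33 of them, or 36.7%, were called lower in the 5A mutant (limma, adjusted p under 0.05) beside 20.7% of all probes, while 5 were called higher. Of all probes, 19.8% were called higher. Of the 90, 14 or 15.6% had a mean of -1 or less and none had one of 1 or more, beside 8.66% and 5.75% of all probes. Without array 1, the number called lower became 19, without array 3 and without array 4 it became 21, and all probes called lower numbered 748, 793 and 786 in those fits. Probes beside YHR214C-B, near the end of chromosome VIII, had the lowest median, -1.002, and included YHR218W at -2.83. Without them, 29 of 84 or 34.5% were called lower.

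The neighbours of Ty3 did not share its level. On chromosome IX, YIL082W averaged -3.72, against -1.32 ± 0.03 for SDS3, a subunit of the Rpd3 histone deacetylase complex, and 0.61 ± 0.33 for KTR7, a mannosyltransferase gene (SD, n = 4 each). On chromosome VII, YGR109W-A averaged -3.65, against -0.75 ± 0.36 and -0.75 ± 0.69 for the cyclin genes CLB1 and CLB6 and 0.81 ± 0.40 for VOA1, an assembly factor of the vacuolar ATPase (SD, n = 4 each). YCL020W, the Ty2 TYA ORF on chromosome III, averaged -2.59, against -1.94 ± 0.15 (SD, n = 4) for its neighbour LEU2, which is also the marker linked to the CTD construct. In 8 of the 17 elements the lowest listed Ty probe lay below all 6 of its neighbours. In the others at least 1 neighbour was lower than that listed probe. An example was BNA1, of NAD synthesis, at -1.97 ± 0.10 (SD, n = 4) beside the pair of Ty1 elements on chromosome X. YER138C was listed without its TYA partner YER137C-A, which at -1.19 lay below all neighbours of the element, the lowest being RTR1 at -0.66.

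Many host genes are known to act on Ty elements, and 100 of them, with genes of mating type, were put in 11 lists from textbook knowledge. Of these, 98 were tested, and 42 or 42.9% had an adjusted p under 0.05 (limma, Benjamini-Hochberg over all probes), beside 40.5% of all probes. The 5A mutant was higher at 16 of them and lower at 26, and the median of the 98 was -0.06, against -0.01 for all probes. Without arrays 1, 3 and 4 in turn, the number called became 21, 22 and 23. Of all probes, 1438, 1501 and 1492 were called in those fits, against 2495 with all arrays.

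The transcription factors that bind Ty promoters moved in both directions. Of 9, 2 were called higher and 3 lower, beside 19.8% of all probes called higher and 20.7% called lower. GCN4, the activator of amino acid biosynthesis genes, was at 1.00, 1.88, 1.67 and 1.11, a mean of 1.42 ± 0.43 (SD, n = 4; adjusted p = 0.00179, limma). TYE7, a helix-loop-helix activator of Ty-mediated and glycolytic gene expression, was at -1.09, -1.89, -0.59 and -1.03, a mean of -1.15 ± 0.54 (adjusted p = 0.00617, limma). STE12, the pheromone-response activator that acts with Tec1 at Ty1, was at -1.03, -0.91, -0.59 and -0.70, a mean of -0.80 ± 0.20 (adjusted p = 0.00447, limma). Each had the same sign on all 4 arrays. The other calls were MCM1, a MADS-box factor, at -0.56 ± 0.32 and MOT3, a zinc finger regulator, at 0.49 ± 0.13 (SD, n = 4 each), and both were lost when array 1, 3 or 4 was left out. MCM1 was also not called with chromosomes centred (adjusted p = 0.0503, limma). TEC1 itself averaged -0.01 ± 0.19 (SD, n = 4), with an adjusted p of 0.953 in limma. In the MAPK pathways that control Ste12, 1 of 7 was called, beside 40.5% of all probes. It was FUS3, the pheromone-response kinase, at -0.78 ± 0.11 (SD, n = 4; adjusted p = 0.00358, limma).

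The chromatin and core promoter factors were called in both directions, beside 20.7% of all probes called lower and 19.8% called higher. Among 9 genes of SAGA and TBP, 2 were called, both lower, SPT8 at -0.53 ± 0.38 and HFI1 at -0.48 ± 0.28 (SD, n = 4 each). Neither stayed under 0.05 when array 1, 3 or 4 was left out or when chromosomes were centred. In the SWI/SNF remodeller, 2 of 7 were higher and 2 lower. SNF6 averaged -1.16 ± 0.33 (adjusted p = 0.00217, limma) and SWI3 -0.68 ± 0.21 (adjusted p = 0.00832, limma), whereas SWI1 at 0.53 ± 0.38 and SNF5 at 0.47 ± 0.13 (SD, n = 4 each) were not called without array 1, 3 or 4. Among 9 tested genes of histone gene regulation and Spt-dependent elongation, 3 were higher and 1 lower. HIR2, a subunit of the HIR corepressor of histone genes, had the largest mean, 0.94 ± 0.19 (SD, n = 4; adjusted p = 0.00255, limma). SPT4 at 0.54, HIR3 at 0.41 and SPT21 at -0.51 were each lost when array 1, 3 or 4 was left out. SPT4 was also lost without array 2, and SPT21 with chromosomes centred (adjusted p = 0.0707, limma).

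Genes that act after transcription made up a pair of lists. Of 10 genes of Ty RNA and Gag handling, 1 was called, beside 40.5% of all probes. It was BUD22, a ribosome biogenesis factor, at 0.41 ± 0.20 (SD, n = 4), and it was not called with any array left out. Of 13 genes known to restrict Ty1 transposition, 3 were higher and 3 lower, beside 19.8% of all probes called higher and 20.7% called lower. MRE11, a nuclease of DNA repair, had the largest change of all the lists, -1.95 ± 0.75 (SD, n = 3; adjusted p = 0.00416, limma), and TEL1, a checkpoint kinase, averaged 0.74 ± 0.20 (SD, n = 4; adjusted p = 0.00615, limma). The chaperone gene RTT106 at -0.56 and ELG1, of clamp unloading, at -0.55 were called in the fit over 4 arrays, RTT106 not without array 3 or 4 and ELG1 not without array 1 or 4. RAD27, the flap endonuclease gene, averaged 0.81 but lies on chromosome XI and was at -0.075 once each chromosome was centred on its median, and it was not called without array 1 or 3. The remaining call was RAD6, a ubiquitin-conjugating enzyme, at 0.39 ± 0.11 (SD, n = 4), and it was lost when array 1, 3 or 4 was left out.

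Ty elements insert near genes transcribed by RNA polymerase III. Of 17 tested genes of Pol III and integration targeting, 3 were called higher and 4 lower. Of all probes, 19.8% were called higher and 20.7% lower. TFC3 of the assembly factor TFIIIC averaged -1.11 ± 0.22 (adjusted p = 0.00162, limma), RET1, a large Pol III subunit, -0.92 ± 0.55 (adjusted p = 0.0143, limma), RPC31, another subunit, -0.89 ± 0.29 (adjusted p = 0.00474, limma), and TFC8, of TFIIIC, -0.66 ± 0.26 (SD, n = 4 each; adjusted p = 0.012, limma). RET1 was not called without array 3. SET3, of a histone deacetylase complex, averaged 0.83 and, being on chromosome XI, was at -0.054 after chromosomes were centred. The other higher calls had smaller means and stayed called after centring. With chromosomes centred, 6 of the 17 were called, and the calls over all probes went from 2495 to 2271. Without arrays 1, 3 and 4 in turn, 5, 4 and 5 of the 17 were called, beside 1438, 1501 and 1492 of all probes.

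Ty1 and Ty3 are known to be under mating-type and pheromone control, so the genes of mating type were read beside them. Of 9 haploid-specific genes, 5 were lower and 1 higher, beside 20.7% of all probes called lower and 19.8% called higher. FUS1, of cell fusion, averaged -1.19 ± 0.28 (adjusted p = 0.00165, limma), FAR1, of pheromone arrest, -1.02 ± 0.44 (adjusted p = 0.00579, limma), RME1, a repressor of meiosis, -0.86 ± 0.54 and GPA1, the pheromone-pathway G-alpha subunit, -0.64 ± 0.26, beside FUS3 above, whereas STE5, the scaffold of that pathway, averaged 0.69 ± 0.27 (SD, n = 4 each). RME1 was not called without array 1, 3 or 4, nor STE5 without array 1 or 3, nor GPA1 without array 1. Of 5 a-specific genes 4 were lower, among them BAR1, the pheromone protease, at -1.04 ± 0.24 (adjusted p = 0.00212, limma), MFA1 and MFA2, which encode a-factor, at -0.92 ± 0.34 and -0.63 ± 0.14, and STE2, the receptor, at -0.45 ± 0.19 (SD, n = 4 each). MFA2 was not called without array 1, and STE2 not without array 1, 3 or 4. With chromosomes centred, STE2 was at -0.29 and not called (adjusted p = 0.148, limma). STE6 was higher at 0.49 and lies on chromosome XI, and after centring it was at -0.40. Of 4 alpha-specific genes, SAG1 at -1.04 ± 0.84 and MF(ALPHA)1 at -0.96 ± 0.74 (SD, n = 4 each) were called lower, SAG1 not without array 1 or 3 and MF(ALPHA)1 not without array 1, 3 or 4. The other 2 alpha-specific genes were below 0 on array 1 alone. MF(ALPHA)2 was at -1.30, 0.82, 1.06 and 0.92, a mean of 0.38 ± 1.12, and STE3, a receptor gene on chromosome XI, at -1.16, 0.77, 0.59 and 0.58, a mean of 0.20 ± 0.91 (SD, n = 4 each). Without array 1 both were called higher, at 0.93 (adjusted p = 0.0148, limma) and 0.65 (adjusted p = 0.0382, limma), and with chromosomes centred STE3 was at -0.69. In the fit over 4 arrays, lower calls thus outnumbered higher ones in each mating-type list. They stood at 4 against 1 among a-specific, 2 against 0 among alpha-specific and 5 against 1 among haploid-specific genes. The part of these genes in the Ty ratios was not tested.

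**Figure D5:**
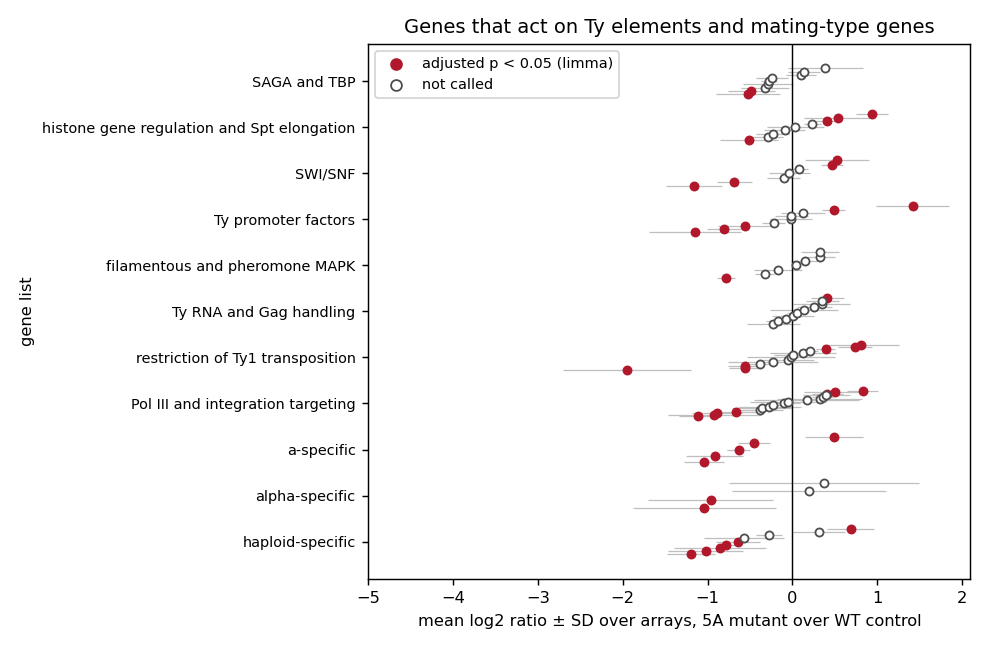
Mean log2 ratio over arrays (5A mutant over WT control, horizontal axis) of the tested genes of 11 lists, 1 row per list, with filled points for an adjusted p under 0.05 in limma, open points for genes not called and grey lines of 1 SD to each side. Calls fall on both sides of 0 in 7 lists, and GCN4 at 1.42 and MRE11 at -1.95 lie farthest from 0.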

How the data were processed

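Expression was measured on 4 spotted two-colour oligonucleotide arrays. The authors scanned them with GenePix and used the BASE server for normalization, and they deposited a single log2 ratio for each probe on each array. The normalization method and the background correction are not given in the sources used here, and spot intensities were not analysed here. The base and direction are not stated either. Base 2 and 5A over WT were inferred, since among the 5955 probes with 4 values 325 then had a mean of at least 1 and 493 one of at most -1, which equal the counts in the paper.

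Probes measured on 2 or more arrays, 6157 in all, were fitted to a mean against 0 (limma 3.58.1, R 4.3.3, eBayes, Benjamini-Hochberg adjustment over all of them at 0.05). Each array is itself a pair of 5A and WT RNA. ORF names were matched to the RefSeq table (R64), 5724 by locus tag and 34 by synonym of 6210, and Ty ORFs outside the list were taken from its nested ORF pairs. Medians over a class were taken per array, then averaged over arrays with the SD. All members are named, and of each host list the up to 5 genes with the largest absolute mean that passed an adjusted p of 0.05 and had at least 3 values, besides genes named to complete a count, RPO21 and URA3. TEC1, GPA1, RAD6, MF(ALPHA)2, STE3 and the neighbours of Ty elements were named after their values were seen. The members and lists were chosen with earlier results of these data known. The fit was tested on simulated ratios for 6157 probes of which 200 were changed, and it recovered 59% at a log2 size of 1 and 88% at 2, with 4.55% of calls false.

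Alternatives were centring or scaling of arrays, stricter and looser rules for missing values, the median over arrays, robust eBayes, array weights, centred chromosomes and each array left out. For TYA minus TYB and for neighbouring probes they were added after the data were seen. The number of arrays limits the precision. Python 3.11.15, numpy 2.4.6, pandas 2.3.3, scipy 1.17.1 and matplotlib 3.10.9 were used.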

Additional observations from a re-analysis of the deposited data

Results flagged for a closer look

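Of 73 sets of 4 values (the listed Ty probes and the named host genes), 6 had a sample far from the other 3, and chance flags about 1 in 20 such sets. Of the 6, 3 were Ty probes on array 2. YBL005W-A was at -0.65 there and between -1.22 and -1.13 on the other arrays. YBR012W-B was at 0.38 on array 2 and between -1.09 and -0.88 on the others, and YJR029W was at 0.51 on array 2 and between -0.74 and -0.59 on the others. On array 1, MF(ALPHA)2 was at -1.30 and between 0.82 and 1.06 on the other arrays, and STE3 was at -1.16 and between 0.58 and 0.77 on the others. STE6 was at -0.023 on array 3 and between 0.63 and 0.72 on the other arrays.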

How the results depend on the processing

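Under the alternatives that were run, the medians of Ty1/Ty2, Ty3 and Ty4, of each TYA class, of Ty1, Ty2 and Ty3 TYB, of TYA minus TYB and of the neighbouring probes kept their direction and moved by less than their SD over arrays. The mean of YJL113W, the only listed Ty4 TYB probe, was 0.05 and became -0.10 with array weights, -0.16 as a median over arrays and -0.20 without array 2 (-0.20 to 0.16 with each array left out). That of YJR027W was 0.08 and became -0.16, -0.18 and -0.23 (-0.23 to 0.22). With each array left out in turn, the number of probes called ran between 1438 and 3120 (2495 with all arrays), those higher between 690 and 1532 (1220), those lower between 748 and 1588 (1275), host genes called between 21 and 46 (42), neighbouring probes called lower between 19 and 38 (33) and listed Ty probes called between 16 and 28 (16). Array weights also called 28 listed Ty probes. The highest of these counts were without array 2. The fits that kept it and left out another array called fewer in each set but the listed Ty probes, where they called 16. Of 515 values for 43 named host genes under the alternatives, 440 kept their direction and side of the threshold, 65 (in 23 genes) passed it no longer, 2 passed it newly and 8 changed direction. With chromosomes centred, RAD27 went to -0.075, SET3 to -0.054, STE6 to -0.40 and STE3 to -0.69, and TEC1, at -0.011, went to 0.0061 at a common spread, 0.013 as a median and between -0.077 and 0.070 with each array left out. Each ratio is already within a pair of 5A and WT RNA, so the fit over arrays is the paired one. Spot intensities were not used, so signal over background limits the low probes to an unknown degree.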
